A study of Homo sapiens with 24 samples.

Results

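The proteasome genes described here are the 39 gene symbols, of 16591 in the deposited table, that begin with PSM, go on with a letter from A to G and end in a number, with the immunoproteasome genes PSMB8 and PSMB9 left out. They code for 4 subunits of the alpha ring, 7 constitutive subunits of the beta ring and PSMB10, an inducible beta subunit, all of the 20S core. The 19S cap is represented by 5 ATPase subunits, 11 non-ATPase subunits and 2 of its assembly chaperones. The other members are 4 activator genes, 1 inhibitor and 4 assembly chaperones of the core. PSMA1, PSMA2, PSMA3, PSMA6, PSMB11, PSMC2 and PSMD9 were not analysed here.

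The proteasome is the main protease of the cytosol and nucleus, and it degrades proteins that carry ubiquitin chains. Its 20S core is a barrel of stacked alpha and beta rings, in which PSMB5, PSMB6 and PSMB7 hold the catalytic sites. The 19S cap binds ubiquitin chains, removes them and unfolds the substrate with a ring of ATPases. Interferons induce the catalytic subunits PSMB8, PSMB9 and PSMB10 and the activator PA28, made of PSME1 and PSME2, which together alter the peptides made for MHC class I.

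The libraries came from cells kept for 3 or 5 days in 5 µM EPZ015666, which inhibits the protein arginine methyltransferase PRMT5, or in DMSO, its vehicle. BT549 (breast) and OVCAR8 (ovarian) cells were sampled under EPZ015666 and under DMSO at day 3 and at day 5. COV362 (ovarian) and MDAMB436 (breast) cells were sampled under EPZ015666 and under DMSO at day 5 only. Each of the 12 groups had 2 libraries of stranded poly(A) RNA, A and B, and since the labels do not say whether these were separate cultures, p-values measure the spread between libraries, possibly only technical spread.

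The deposited levels are RPKM (reads per kilobase and per 1 M of a library total), and the length the authors divided by was the whole span of a gene, introns included. Changes are log2(RPKM + 1) under EPZ015666 minus DMSO, given ± SE from limma, with p-values adjusted over all genes tested in that comparison and a threshold of 0.05. This scale understates changes of low genes. Where a call is said below to be lost in other settings, a fit with the replicate letter as an added term is left out of the list. Testing in a line required a mean of at least 1 RPKM there, which 33 of the 39 members did in each line, and PSMC1 and PSMG4 in none. The recovered reads ran from 23.76 M to 44.94 M per library (median 27.785 M), and the members took 0.507% to 0.713% of them. Replicates differed by more than counting noise in each group, with a median chi-square of 1.87 to 5.49 times that of counting error. Ribosomal RNA genes of chromosome 21 took 4.559% of the reads in EPZ015666 library B of OVCAR8 at day 5, 1.402% in EPZ015666 library A of BT549 at day 3 and less in the others. Checked against markers, PAX8, a marker of Müllerian tissue, averaged at most 0.349 RPKM in any group. WT1 and MUC16, of the same list, averaged at most 0.208 and 0.595 RPKM. MSLN, also of that list, averaged 47.3 RPKM in OVCAR8 and 22.2 RPKM in COV362 under DMSO at day 5. In BT549 and MDAMB436 it averaged 3.08 and 0.858 RPKM there. EPCAM, an epithelial marker, averaged at most 0.002 RPKM in BT549 and 0.065 RPKM in MDAMB436, while KRT18, another, was present in each line. The leukocyte and endothelial markers present averaged under 1 RPKM in every group.

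The promoters of PSME1, PSME2 and PSMB10, the interferon-inducible members, are shown because PSME1 was the only member called lower in all 6 comparisons of drug and vehicle, PSME2 is its partner and PSMB10 had the largest single fall. PSME1 and PSME2 lie on chromosome 14 with 4.4 kb between them, and PSMB10 lies on chromosome 16. Each sequence runs 5′ to 3′ from 250 bases before to 50 bases after the gene's start, as given by RefSeq on GRCh38.p14, and capitals mark matches on either strand to GAAA, any 2 bases (NN) and GAAA again, the core of the interferon-stimulated response element.
PSME1, chr14:24135944-24136243, plus strand: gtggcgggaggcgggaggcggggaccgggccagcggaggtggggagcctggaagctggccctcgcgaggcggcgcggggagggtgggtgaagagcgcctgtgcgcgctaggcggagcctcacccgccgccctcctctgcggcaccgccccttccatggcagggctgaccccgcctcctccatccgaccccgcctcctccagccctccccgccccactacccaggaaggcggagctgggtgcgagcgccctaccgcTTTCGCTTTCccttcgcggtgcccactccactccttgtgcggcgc
PSME2, chr14:24146561-24146860, minus strand: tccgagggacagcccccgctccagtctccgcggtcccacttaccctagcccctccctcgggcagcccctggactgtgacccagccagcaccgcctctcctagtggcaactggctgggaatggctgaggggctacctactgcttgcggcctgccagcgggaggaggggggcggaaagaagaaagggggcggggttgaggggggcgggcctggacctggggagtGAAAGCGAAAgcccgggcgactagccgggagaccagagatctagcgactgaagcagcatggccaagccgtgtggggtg
PSMB10, chr16:67936801-67937100, minus strand: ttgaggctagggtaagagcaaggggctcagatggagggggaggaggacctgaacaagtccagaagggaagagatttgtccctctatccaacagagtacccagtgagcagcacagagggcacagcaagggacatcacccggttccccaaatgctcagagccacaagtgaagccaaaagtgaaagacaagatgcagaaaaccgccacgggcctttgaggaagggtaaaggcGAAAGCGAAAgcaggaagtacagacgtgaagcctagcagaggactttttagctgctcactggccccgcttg
The match began 28 bases before the start in PSME2, 21 bases before it in PSMB10 and 5 bases after it in PSME1. Promoters were found for 33 of the 39 members, in 40 windows, and 6 windows (15%) held this motif, against 3.6% of the 35116 windows of all genes. The other 3 windows belonged to PSMA4, PSMB4 and PSMG4. This motif was searched for after the sequences had been read, and a match describes letters only.

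A second pair of promoters is shown because PSMC4 and PSMD12 had the largest rises in the average over the 4 lines at day 5. In MDAMB436 alone, their changes of 0.08 and 0.06 were not called. Capitals in these promoters mark matches on either strand to TGANNNNGC, the core of the antioxidant response element, which the transcription factors NRF1 and NRF2 bind.
PSMC4, chr19:39970915-39971214, plus strand: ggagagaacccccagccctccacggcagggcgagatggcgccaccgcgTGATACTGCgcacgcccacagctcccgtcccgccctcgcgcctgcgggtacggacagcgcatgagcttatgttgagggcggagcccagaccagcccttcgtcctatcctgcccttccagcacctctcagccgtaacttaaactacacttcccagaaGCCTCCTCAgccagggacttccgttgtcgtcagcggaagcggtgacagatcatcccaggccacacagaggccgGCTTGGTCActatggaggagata
PSMD12, chr17:67366528-67366827, minus strand: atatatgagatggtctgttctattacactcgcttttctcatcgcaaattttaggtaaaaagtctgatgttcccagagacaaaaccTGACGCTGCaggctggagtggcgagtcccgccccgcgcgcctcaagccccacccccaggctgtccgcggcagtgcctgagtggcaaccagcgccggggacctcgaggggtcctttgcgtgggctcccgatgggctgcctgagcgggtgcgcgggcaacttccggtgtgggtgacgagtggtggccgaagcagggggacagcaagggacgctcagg
PSMC4 had 3 matches and PSMD12 had 1. Over the members, 24 of 40 windows (60.0%) held this core, against 41.8% of all windows. CCAAT was found in 37.5% of the members' windows and 34.6% of all windows, and GGGCGG in 67.5% and 45.0%.

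Between genes, levels were compared as recovered reads per kilobase of exon and per 1 M recovered reads (exon RPKM). The recovered reads were 93.88% to 106.69% of the library total behind the deposited RPKM. Exon RPKM and RPKM are thus scaled differently, and small changes between libraries can differ between them. Averaged over the 24 libraries, in exon RPKM, PSMB4, a beta subunit without catalytic activity, stood at 363, the catalytic subunit PSMB7 at 339 and the alpha subunit PSMA7 at 276. The order of these 3 depended on the line: under DMSO at day 5, PSMB4 stood at 217 and PSMB7 at 326 in OVCAR8, against 621 and 415 in MDAMB436. Other catalytic subunits were lower, PSMB6 at 151 and PSMB5 at 134. PSMB10, the inducible counterpart of PSMB7, stood at 3.8, while PSME1 at 154 was the highest of the activators. Near the low end were PSMC6 at 12.2 and PSMG4 at 3.88, and PSMC1 was lowest at 0.394.

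**Figure D1:**
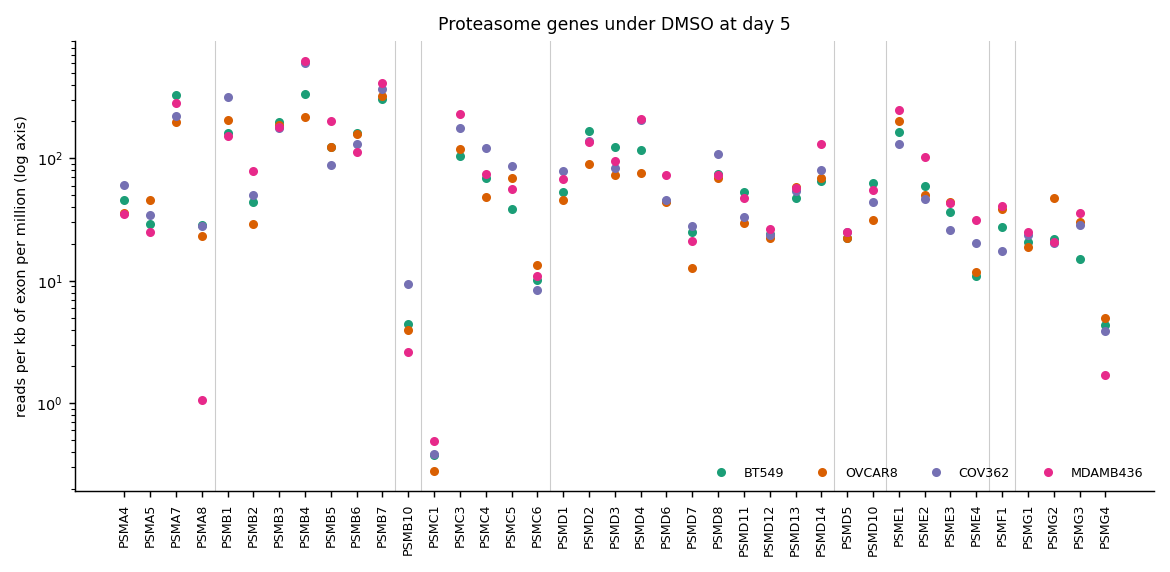
Mean exon RPKM (log axis) for each of the 39 members under DMSO at day 5, 1 point per cell line (mean of 2 libraries), ordered by role with vertical lines between roles. PSMB4, PSMB7 and PSMA7 lie near the top, PSMB10, PSMG4 and PSMC1 near the bottom, and PSMA8 is low in MDAMB436.

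PSMC1 codes for an ATPase of the 19S cap, and its row held 29 to 70 reads per library. Its processed copy PSMC1P1 held 2996 to 8958 reads, so how the reads divide between PSMC1 and its copies is uncertain. In addition, 75.8% of the exon bases of PSMC1 overlap NRDE2 on the other strand, and the strand setting of the read counting is not given. The copy PSMC1P1 averaged 111 ± 3.61 RPKM under EPZ015666 and 89.9 ± 5.10 RPKM under DMSO in OVCAR8 at day 5 (SD, n = 2 each), a rise of 0.30 ± 0.06 in limma's test (adjusted p = 0.0068). In MDAMB436 it averaged 92.4 ± 2.02 RPKM under EPZ015666 and 112 ± 1.95 RPKM under DMSO (SD, n = 2 each), a fall (-0.28 ± 0.04, adjusted p = 0.00733) that was lost without EPZ015666 library A (adjusted p = 0.0527). Other overlaps were smaller, the largest being 34.8% of the exon bases of PSMB10, shared with AC040162.1 on the same strand, and 30.7% of PSMD7, on the other strand. Copies of PSME2 held 0.219 reads for each read of PSME2.

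Under DMSO at day 5 the levels of the members differed between the cell lines. MDAMB436 had the highest mean for 14 of the 39 members, COV362 for 10, BT549 for 9 and OVCAR8 for 6, and OVCAR8 had the lowest for 19. In limma's F test between lines 32 of the 33 members tested differed, where 98.7% of all genes did. The highest line exceeded the lowest by a median factor of 1.95, with a range from 1.12 for the chaperone PSMD5 to 30.0 for PSMA8. The counts per line and this factor were not computed over all genes, so they describe the members only.

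The smallest adjusted p belonged to PSMB4, which had 245 and 233 RPKM in MDAMB436, 236 and 241 in COV362, 145 and 141 in BT549 and 83.6 and 87.5 in OVCAR8 (adjusted p = 6.26e-12). MDAMB436 and COV362 overlapped and the other lines did not. PSMD4, the ubiquitin receptor of the cap also called RPN10, had 21.7 and 21.6 RPKM in COV362, 21.5 and 21.4 in MDAMB436, 13.7 and 12.9 in BT549 and 7.92 and 7.92 in OVCAR8 (adjusted p = 3.74e-11). Its order was close to that of PSMB4, with the same pair of lines on top and OVCAR8 at the bottom. These genes lie on chromosome 1 with 132.0 kb between them, PSMD4 at 151254703 to 151267479 and PSMB4 at 151399534 to 151401944 on GRCh38.

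PSMC4, an ATPase of the cap, had 18.2 and 18.5 RPKM in COV362, 11.3 and 11.3 in BT549, 10.8 and 11.1 in MDAMB436 and 7.24 and 7.32 in OVCAR8 (adjusted p = 7.63e-12). No lines overlapped, though BT549 and MDAMB436 were near each other. PSME2 had 35.8 and 34.3 RPKM in MDAMB436, 22.5 and 22.3 in BT549, 17.6 and 17.4 in OVCAR8 and 16.3 and 16 in COV362 (adjusted p = 4.97e-11). All lines were apart from each other. PSMA8, the alpha subunit known from the testis, had 0.994 and 0.91 RPKM in BT549, 0.847 and 0.881 in COV362, 0.715 and 0.719 in OVCAR8 and 0.0287 and 0.0347 in MDAMB436. MDAMB436 was far below the other lines, and PSMA8 was not tested between lines because it averaged under 1 RPKM there.

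EPZ015666 changed single members in opposite directions, and only PSME1 was called in the same direction in all 6 comparisons of drug and vehicle. PSME1 fell in each. In bulk RNA of a culture, fewer cells with a transcript and less of it per cell cannot be told apart. PSMC4, PSMD12, PSMD2 and PSMD5 were called higher in 3 comparisons and lower in none, and PSMB4 was called lower in 4 and higher in none. Of the 39 members 33 were called in at least 1 comparison, 4 were tested and called in none, and 7 were called higher in one comparison and lower in another. Of the 37 members tested in at least 1 comparison, 89.2% were called in at least 1, against 84% of all genes so tested. The share called in both directions was 18.9% over these members, against 15.8% over these genes. A call in the same direction in all 6 was had by 1 of the 33 members tested in all, and by 5.42% of all genes so tested.

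**Figure D2:**
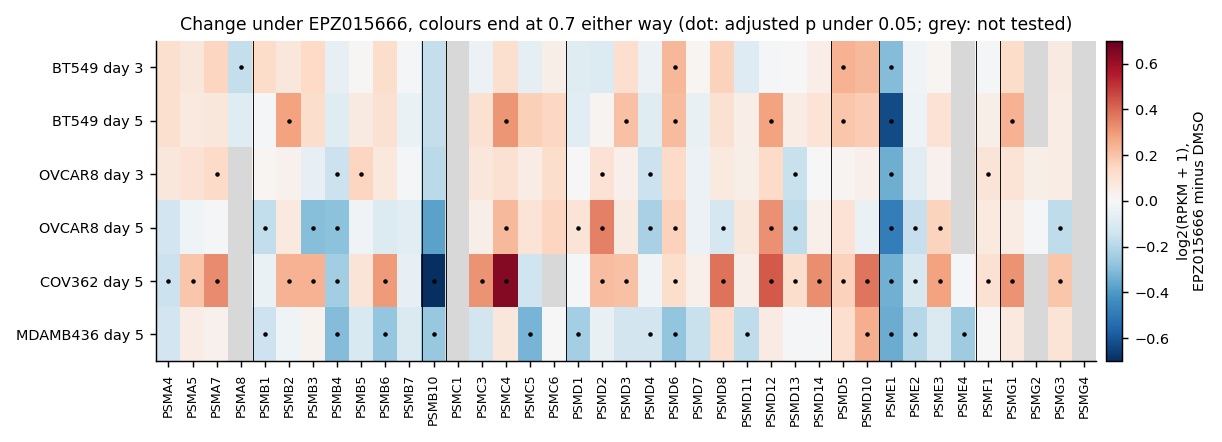
Change of each member in log2(RPKM + 1), EPZ015666 minus DMSO, in the 6 comparisons of drug and vehicle (rows), with members ordered by role (columns) and vertical lines between roles. Red is higher and blue lower under EPZ015666, colours end at 0.7 in either direction (PSMB10 in COV362, at -0.92, lies beyond), a dot marks an adjusted p under 0.05 and grey marks members not tested. PSME1 is blue with a dot in each row, and the COV362 row has the most dots.

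In BT549 at day 3, 2 of 35 members rose (PSMD5 and PSMD6) and 2 fell (PSME1 and PSMA8), 4 in all, where 20.0% of all genes tested were called, 9.22% higher and 10.8% lower. The median change was 0.02 over members and 0.01 over all genes. Only 1 member was called without DMSO library A or without EPZ015666 library B, and leaving out 1 library left 9.84% to 18.0% of all genes called. With no filter on low values 1 of 39 members was called, where 8.57% of all genes were. With a minimum of 5 RPKM it was 2 of 27 (all genes 21.3%), and in 1 fit over all 24 libraries 13 of 35 (all genes 39.8%).

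At day 5 in BT549, 7 of 35 members rose and 1, PSME1, fell, where 40.4% of all genes were called, 17.7% higher and 22.7% lower. The risers were PSMC4, PSMB2, PSMD12, PSMG1, PSMD6, PSMD3 and PSMD5. The median change was 0.08 over members and -0.01 over all genes. Fewer members were called without each of the 4 libraries, 5 without DMSO library A or B, 4 without EPZ015666 library A and 3 without EPZ015666 library B, where 22.1% to 26.5% of all genes were called. In 1 fit over all 24 libraries 16 of 35 members were called, where 54.5% of all genes were.

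OVCAR8 at day 3 had 4 of 35 members higher (PSMB5, PSMA7, PSMD2 and PSMF1) and 4 lower (PSME1, PSMD13, PSMB4 and PSMD4), where 37.0% of all genes were called, 15.6% higher and 21.4% lower. The median change was 0.04 over members and -0.01 over all genes. The count was 3 without DMSO library A, 2 without DMSO library B, 4 without EPZ015666 library A and 3 without EPZ015666 library B, where 21.9% to 27.5% of all genes were called. On recovered reads with limma-voom it was 13 of 39, where 38.7% of all genes were called.

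By day 5 in OVCAR8, 6 of 35 members were called higher (PSMD2, PSMD12, PSMC4, PSMD6, PSME3 and PSMD1) and 9 lower (PSME1, PSMB3, PSMB4, PSMD4, PSMD13, PSMG3, PSMB1, PSME2 and PSMD8), where 56.2% of all genes were called, 21.1% higher and 35.1% lower. The median change was -0.02 over members and -0.04 over all genes. The count was 9 without EPZ015666 library A and 11 without EPZ015666 library B, the library with the ribosomal RNA reads, where 42.8% to 47.6% of all genes were called with 1 library left out. On recovered reads it was 25 of 39, where 55.9% of all genes were called.

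COV362 had the highest count, with 20 of 34 members called higher and 5 called lower, where 70.8% of all genes were called, 39.3% higher and 31.5% lower. The median change was 0.14 over members and 0.03 over all genes. The risers included 7 of 11 non-ATPase subunits of the cap, both of its chaperones and the ATPases PSMC3 and PSMC4. PSMB10, PSME1, PSMB4, PSMA4 and PSME2 fell.

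In MDAMB436, by contrast, 1 of 35 members was called higher and 12 were called lower, where 42.2% of all genes were called, 19.0% higher and 23.2% lower. The riser was the chaperone PSMD10. PSME1, PSMC5, PSMB4, PSMD6, PSMB6, PSMB10, PSME4, PSMD1, PSME2, PSMD11, PSMB1 and PSMD4 fell. The median change was -0.10 over members and -0.01 over all genes. The count was 8 without EPZ015666 library A, and 7 without EPZ015666 library B, where 21.2% to 38.2% of all genes were called with 1 library left out. It was 23 of 39 on recovered reads, where 48.5% of all genes were called, and 21 of 35 after a GC and span correction, where 47.5% were.

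Among alpha subunits, which form the outer rings and the gate of the core, PSMA7 was called higher in OVCAR8 at day 3 and in COV362. In COV362 PSMA7 had 64.1 and 64.3 RPKM under EPZ015666, against 50.4 and 51.2 RPKM under DMSO. Both drug libraries were above both DMSO libraries, a rise of 0.33 ± 0.03 (adjusted p = 0.000612) that was kept without any 1 library. In OVCAR8 at day 3 it had 50.1 and 51.6 RPKM under EPZ015666, against 47 and 45.6 RPKM under DMSO, which did not overlap (0.13 ± 0.04, adjusted p = 0.0497). That call was lost without each of the 4 libraries in turn (adjusted p from 0.0852 to 0.205) and with no filter on low values or with median-of-ratios scaling (adjusted p from 0.0549 to 0.0755).

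PSMA8 had 0.983 and 1.07 RPKM under EPZ015666, against 1.33 and 1.23 RPKM under DMSO, in BT549 at day 3. Both drug libraries were below both DMSO libraries, a fall, with a change of -0.17 (adjusted p = 0.0337). The call was lost without DMSO library A, EPZ015666 library A or EPZ015666 library B (adjusted p from 0.0609 to 0.113) and with no filter on low values (adjusted p = 0.0628). PSMA5 rose in COV362 (0.20 ± 0.03, adjusted p = 0.00367) and PSMA4 fell there (-0.15 ± 0.03, adjusted p = 0.00671, lost in 1 fit over all 24 libraries, adjusted p = 0.059), and neither was called elsewhere.

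PSMB4 was called lower in 4 of the 6 comparisons. In COV362 PSMB4 had 201 and 201 RPKM under EPZ015666, against 236 and 241 RPKM under DMSO. In MDAMB436 it had 191 and 197 RPKM under EPZ015666, against 245 and 233 RPKM under DMSO, and in OVCAR8 at day 5 71.1 and 68.6 RPKM under EPZ015666, against 83.6 and 87.5 RPKM under DMSO. The drug libraries were below the DMSO libraries in each of these. The changes were -0.24 ± 0.03 (adjusted p = 0.00199) in COV362, -0.30 ± 0.04 (adjusted p = 0.0072) in MDAMB436 and -0.29 ± 0.04 (adjusted p = 0.000893) in OVCAR8, and they were kept without any 1 library. In OVCAR8 at day 3 PSMB4 had 72.4 and 73.3 RPKM under EPZ015666, against 81.1 and 81.1 RPKM under DMSO, again without overlap (-0.15 ± 0.04, adjusted p = 0.018), and that call was lost without each of the 4 libraries in turn (adjusted p from 0.0556 to 0.0871). BT549 gave 134 and 134 RPKM under EPZ015666, against 145 and 141 RPKM under DMSO at day 5, below DMSO in both libraries but not called (-0.09 ± 0.07, adjusted p = 0.325), and the groups overlapped at day 3 (-0.06 ± 0.07, adjusted p = 0.56).

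Of the catalytic subunits, PSMB5 was called in 1 comparison, PSMB6 in 2 and PSMB7 in 0 by limma. For PSMB7, 2 of the 6 comparisons had an unadjusted p under 0.05, and limma-voom on recovered reads called 3 of 6. In the effect averaged over the 4 lines at day 5 (the common effect) PSMB7 was called lower (-0.07 ± 0.01, adjusted p = 0.00122). PSMB5, the chymotrypsin-like subunit and the main target of bortezomib, had 10.2 and 10.9 RPKM under EPZ015666, against 9.68 and 9.21 RPKM under DMSO, in OVCAR8 at day 3. All drug values lay above DMSO, a change of 0.15 ± 0.04 (adjusted p = 0.0343), and the call was lost without DMSO library A, DMSO library B or EPZ015666 library B (adjusted p from 0.0589 to 0.165) and with no filter on low values or with a GC and span correction (adjusted p from 0.0537 to 0.0595). It was not called in the other 5 comparisons, with changes from -0.11 in MDAMB436 to 0.09 in COV362. PSMB5 had 7.19 and 7.43 RPKM under EPZ015666, against 6.69 and 6.95 RPKM under DMSO in COV362 at day 5, 13.8 and 14.2 RPKM under EPZ015666, against 15.1 and 15.2 RPKM under DMSO in MDAMB436 at day 5, and 9.48 and 9.35 RPKM under EPZ015666, against 9.78 and 9.39 RPKM under DMSO in OVCAR8 at day 5. Its values were 10.7 and 11 RPKM under EPZ015666, against 10.4 and 10.3 RPKM under DMSO in BT549 at day 5, and 10.2 and 10.9 RPKM under EPZ015666, against 10.3 and 10.7 RPKM under DMSO in BT549 at day 3. The groups overlapped in BT549 at day 3 and in OVCAR8 at day 5.

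PSMB6, the caspase-like subunit, had 58.2 and 58.8 RPKM under EPZ015666, against 48 and 46.7 RPKM under DMSO, in COV362, and 34 and 32 RPKM under EPZ015666, against 39.3 and 40.9 RPKM under DMSO, in MDAMB436. It was higher under EPZ015666 in the one line and lower in the other, with no overlap in either. The changes were 0.30 ± 0.03 (adjusted p = 0.00104) in COV362 and -0.27 ± 0.05 (adjusted p = 0.0131) in MDAMB436, the second lost without EPZ015666 library B (adjusted p = 0.0751). Elsewhere its changes ran from -0.10 in OVCAR8 at day 5 to 0.12 in BT549 at day 3 and were not called. In these PSMB6 had 53.2 and 53.6 RPKM under EPZ015666, against 59.3 and 55 RPKM under DMSO in OVCAR8 at day 5, and 67.7 and 68.8 RPKM under EPZ015666, against 64.5 and 62.3 RPKM under DMSO in BT549 at day 5. At day 3 its values were 58.8 and 60.1 RPKM under EPZ015666, against 57.1 and 55.9 RPKM under DMSO in OVCAR8, and 64.6 and 68.5 RPKM under EPZ015666, against 58 and 64 RPKM under DMSO in BT549. The groups did not overlap in any of the 6, though the direction differed.

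PSMB7, the trypsin-like subunit, had 5.85 and 5.81 RPKM under EPZ015666, against 6.42 and 6.21 RPKM under DMSO in MDAMB436 at day 5, and 5.44 and 5.57 RPKM under EPZ015666, against 5.84 and 5.71 RPKM under DMSO in COV362 at day 5. In the other lines it had 4.83 and 4.75 RPKM under EPZ015666, against 5.16 and 5.01 RPKM under DMSO in OVCAR8 at day 5, and 5.06 and 5.14 RPKM under EPZ015666, against 5.22 and 5.06 RPKM under DMSO in OVCAR8 at day 3. Its values were 4.95 and 5.03 RPKM under EPZ015666, against 5.31 and 5.04 RPKM under DMSO in BT549 at day 5, and 4.81 and 5.11 RPKM under EPZ015666, against 4.96 and 5.1 RPKM under DMSO in BT549 at day 3. The groups overlapped on day 3 in both lines and not at day 5. PSMB7 had changes from -0.10 in MDAMB436 to -0.01 in OVCAR8 at day 3.

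PSMB3 had 10.1 and 9.63 RPKM under EPZ015666, against 12.2 and 12.6 RPKM under DMSO, in OVCAR8 at day 5, and 14 and 14.4 RPKM under EPZ015666, against 12.1 and 11.5 RPKM under DMSO, in COV362. This non-catalytic beta subunit fell in OVCAR8 (-0.30 ± 0.04, adjusted p = 0.000921) and rose in COV362 (0.24 ± 0.03, adjusted p = 0.00347), without overlap in either, and both calls were kept without any 1 library. PSMB2, another non-catalytic one, had 7.01 and 6.61 RPKM under EPZ015666, against 5.51 and 5.33 RPKM under DMSO, in BT549 at day 5, where it rose (0.28 ± 0.04, adjusted p = 0.00257). It also rose in COV362 (0.25 ± 0.03, adjusted p = 0.00157), both again without overlap and kept without any 1 library. PSMB1 was called lower in OVCAR8 at day 5 (-0.17 ± 0.05, adjusted p = 0.0337, lost without DMSO library A, EPZ015666 library A or EPZ015666 library B, adjusted p from 0.0697 to 0.156 and with no filter on low values, adjusted p = 0.061) and in MDAMB436 (-0.15 ± 0.04, adjusted p = 0.0351, lost without DMSO library A, EPZ015666 library A or EPZ015666 library B, adjusted p from 0.0908 to 0.171 and with no filter on low values, adjusted p = 0.063).

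PSMB10, the inducible subunit also called MECL-1, had its largest change in COV362, with 1.94 and 1.74 RPKM under EPZ015666, against 4.68 and 4.05 RPKM under DMSO. The drug mean was 0.422 times the DMSO mean, a fall, with a change of -0.92 ± 0.07 (adjusted p = 0.000675) that was kept without any 1 library. In MDAMB436 it had 0.829 and 0.829 RPKM under EPZ015666, against 1.17 and 1.22 RPKM under DMSO, also without overlap (-0.26 ± 0.03, adjusted p = 0.0055), a call lost in 1 fit over all 24 libraries (adjusted p = 0.0908). These values stood for 65 and 73 reads under EPZ015666, against 92 and 90 reads under DMSO, so the small SE rests on few reads. OVCAR8 gave 1.37 and 1.03 RPKM under EPZ015666, against 1.85 and 1.84 RPKM under DMSO at day 5. The drug libraries were lower there too but were not called (-0.37 ± 0.15, adjusted p = 0.0803). In BT549 it had 2.04 and 1.74 RPKM under EPZ015666, against 2.16 and 2.32 RPKM under DMSO at day 5, and 1.5 and 2.02 RPKM under EPZ015666, against 1.99 and 2.18 RPKM under DMSO at day 3. The values of OVCAR8 at day 3 were 1.19 and 0.695 RPKM under EPZ015666, against 1.45 and 0.959 RPKM under DMSO. The groups overlapped at day 3 in both lines. PSMB10 was not called in BT549 at day 5 (-0.17 ± 0.09, adjusted p = 0.199) or at day 3, with -0.17 in BT549 and -0.19 in OVCAR8.

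PSME1 codes for the alpha subunit of PA28, which opens the gate of the core. In BT549 PSME1 had 48 and 49.4 RPKM under EPZ015666, against 76.2 and 75.3 RPKM under DMSO at day 5, and 49.4 and 55.9 RPKM under EPZ015666, against 67.9 and 62.2 RPKM under DMSO at day 3. In OVCAR8 it had 60.2 and 63.5 RPKM under EPZ015666, against 87.6 and 86 RPKM under DMSO at day 5, and 49.9 and 54.1 RPKM under EPZ015666, against 67.7 and 64.8 RPKM under DMSO at day 3. All drug libraries lay below all DMSO libraries of the same line and day. COV362 gave 44.8 and 43.7 RPKM under EPZ015666, against 55.2 and 57.2 RPKM under DMSO, and MDAMB436 80.9 and 81.5 RPKM under EPZ015666, against 105 and 102 RPKM under DMSO, again without overlap. The drug mean was 0.643 times the DMSO mean in BT549 at day 5 and 0.712 times in OVCAR8 at day 5, and between 0.783 and 0.809 times in the other comparisons. The changes were -0.63 ± 0.07 (adjusted p = 0.000749) in BT549 and -0.48 ± 0.05 (adjusted p = 0.000511) in OVCAR8 at day 5, -0.34 ± 0.03 (adjusted p = 0.00102) in COV362, -0.35 ± 0.04 (adjusted p = 0.00421) in MDAMB436 and -0.34 ± 0.05 (adjusted p = 0.00353) in OVCAR8 at day 3, and these were kept without any 1 library and in the other settings. In BT549 at day 3 the change was -0.30 ± 0.07 (adjusted p = 0.0284), a call lost without DMSO library A or EPZ015666 library A (adjusted p from 0.0782 to 0.0962) and with no filter on low values (adjusted p = 0.0655).

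PSME2 codes for the partner subunit of PA28, and its changes were smaller. In MDAMB436 PSME2 had 29.7 and 31 RPKM under EPZ015666, against 35.8 and 34.3 RPKM under DMSO. In OVCAR8 at day 5 it had 15.2 and 15.9 RPKM under EPZ015666, against 17.6 and 17.4 RPKM under DMSO, and in COV362 15 and 14.8 RPKM under EPZ015666, against 16.3 and 16 RPKM under DMSO. The drug libraries were below the DMSO libraries in all of these, with changes of -0.20 ± 0.04 (adjusted p = 0.0236), -0.16 ± 0.04 (adjusted p = 0.00973) and -0.11 ± 0.03 (adjusted p = 0.0155) in that order. Each call of PSME2 depended on single libraries. The call in OVCAR8 was lost without EPZ015666 library A (adjusted p = 0.057) and with a GC and span correction (adjusted p = 0.054), that in MDAMB436 without DMSO library A, EPZ015666 library A or EPZ015666 library B (adjusted p from 0.0748 to 0.146) and with no filter on low values (adjusted p = 0.0604), and that in COV362 without DMSO library A, DMSO library B or EPZ015666 library B (adjusted p from 0.0584 to 0.0907) and in 1 fit over all 24 libraries (adjusted p = 0.0762). PSME2 also had 21.8 and 21.9 RPKM under EPZ015666, against 22.5 and 22.3 RPKM under DMSO in BT549 at day 5, 21.2 and 24.5 RPKM under EPZ015666, against 24.1 and 22.2 RPKM under DMSO in BT549 at day 3, and 14.7 and 15.4 RPKM under EPZ015666, against 15.7 and 16.2 RPKM under DMSO in OVCAR8 at day 3. In BT549 PSME2 was not called at day 5 (-0.03 ± 0.07, adjusted p = 0.742) or at day 3 (-0.02 ± 0.07, adjusted p = 0.84), where the groups overlapped, nor in OVCAR8 at day 3 (-0.08 ± 0.04, adjusted p = 0.12). PSME3, the nuclear PA28 gamma, was called higher in COV362 (0.28 ± 0.03, adjusted p = 0.00175) and in OVCAR8 at day 5 (0.15 ± 0.03, adjusted p = 0.0071). PSME4, the activator PA200, was called lower in MDAMB436 (-0.25 ± 0.04, adjusted p = 0.00744) and not in COV362 (-0.01 ± 0.03, adjusted p = 0.723), and was not tested in the other lines.

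**Figure D3:**
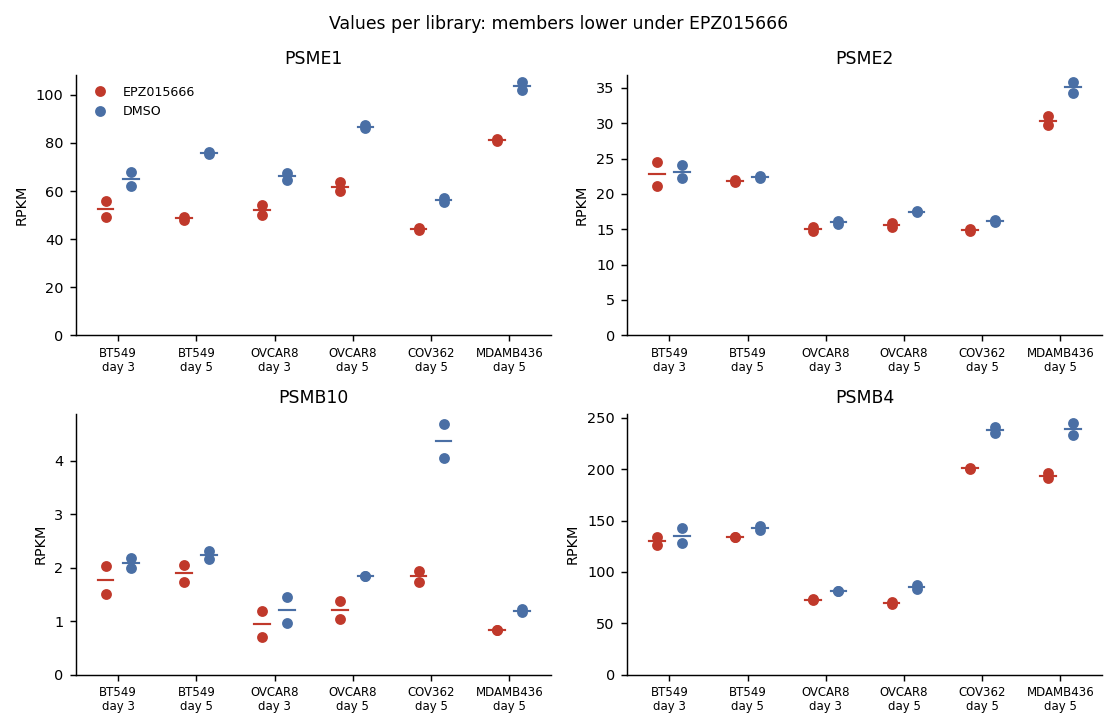
RPKM of PSME1, PSME2, PSMB10 and PSMB4 in each library, EPZ015666 (red) left of DMSO (blue) for each line and day, with bars at the mean of 2 libraries and axes from 0. The PSME1 drug libraries lie below the DMSO libraries in all 6 comparisons, and PSMB10 has its largest gap in COV362.

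PSMC4, also called RPT3, had the largest rise of any member. In COV362 PSMC4 had 28.8 and 29.5 RPKM under EPZ015666, against 18.2 and 18.5 RPKM under DMSO. In BT549 at day 5 it had 14.4 and 14.2 RPKM under EPZ015666, against 11.3 and 11.3 RPKM under DMSO, and in OVCAR8 at day 5 8.78 and 8.62 RPKM under EPZ015666, against 7.24 and 7.32 RPKM under DMSO. Both drug libraries were above both DMSO libraries in each. The drug mean was 1.59 times the DMSO mean in COV362, 1.26 times in BT549 and 1.2 times in OVCAR8, with changes of 0.64 ± 0.03 (adjusted p = 0.000219), 0.31 ± 0.05 (adjusted p = 0.00396) and 0.23 ± 0.04 (adjusted p = 0.00254) in that order. These were kept without any 1 library. In MDAMB436 PSMC4 had 11.5 and 11.7 RPKM under EPZ015666, against 10.8 and 11.1 RPKM under DMSO, higher in both drug libraries but not called (0.08 ± 0.04, adjusted p = 0.155), and it was not called at day 3 in BT549 (0.11 ± 0.05, adjusted p = 0.177) or OVCAR8 (0.10 ± 0.04, adjusted p = 0.0638).

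Among the other ATPases, PSMC3 and PSMC5 were each called in 1 comparison. PSMC5, also called RPT6, had 17.4 and 18.9 RPKM under EPZ015666, against 23.1 and 22.7 RPKM under DMSO, in MDAMB436. Both drug libraries lay below DMSO, a fall, with a change of -0.32 ± 0.05 (adjusted p = 0.0104) that was lost without EPZ015666 library A (adjusted p = 0.0509). PSMC3 rose in COV362 (0.32 ± 0.03, adjusted p = 0.00106), and in MDAMB436 its change of -0.13 was not called (adjusted p = 0.0546). PSMC6 was called in none of the 5 comparisons in which it was tested.

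PSMD12, also called RPN5, a scaffold subunit of the lid, rose in COV362, OVCAR8 and BT549 at day 5. It had 5.22 and 5.12 RPKM under EPZ015666, against 3.5 and 3.65 RPKM under DMSO, in COV362, 4.46 and 4.44 RPKM under EPZ015666, against 3.21 and 3.53 RPKM under DMSO, in OVCAR8, and 4.87 and 5.09 RPKM under EPZ015666, against 3.91 and 3.93 RPKM under DMSO, in BT549. The groups did not overlap in any of these. The changes were 0.43 ± 0.03 (adjusted p = 0.000517) in COV362 and 0.32 ± 0.04 (adjusted p = 0.00144) in OVCAR8, both kept without any 1 library, and 0.28 ± 0.06 (adjusted p = 0.00885) in BT549, which was lost without EPZ015666 library B (adjusted p = 0.0608).

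PSMD2, also called RPN1, is a large scaffold of the cap that binds ubiquitin receptors. In OVCAR8 PSMD2 had 39.6 and 39.5 RPKM under EPZ015666, against 30.9 and 30.7 RPKM under DMSO at day 5, and 37.1 and 35.7 RPKM under EPZ015666, against 33.4 and 34.2 RPKM under DMSO at day 3. The drug libraries were higher on both days, by 0.35 ± 0.03 (adjusted p = 0.000243) at day 5, kept without any 1 library, and by 0.10 ± 0.03 (adjusted p = 0.0409) at day 3, a call lost without DMSO library A, DMSO library B or EPZ015666 library A (adjusted p from 0.0998 to 0.193). PSMD2 also rose in COV362 (0.21 ± 0.04, adjusted p = 0.00574). It was not called in BT549 or MDAMB436.

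PSMD14, also called RPN11, is the deubiquitinase that removes chains from substrates. PSMD14 had 2.13 and 2.11 RPKM under EPZ015666, against 1.46 and 1.52 RPKM under DMSO, in COV362, where the drug libraries were above DMSO and the drug mean was 1.43 times the DMSO mean (0.33 ± 0.03, adjusted p = 0.000825). In the other 5 comparisons it was not called, with changes from -0.02 in MDAMB436 to 0.10 in BT549 at day 5. PSMD14 had 2.34 and 2.36 RPKM under EPZ015666, against 2.33 and 2.45 RPKM under DMSO in MDAMB436 at day 5, 1.46 and 1.46 RPKM under EPZ015666, against 1.33 and 1.28 RPKM under DMSO in BT549 at day 5, and 1.34 and 1.53 RPKM under EPZ015666, against 1.43 and 1.28 RPKM under DMSO in BT549 at day 3. In OVCAR8 its values were 1.36 and 1.31 RPKM under EPZ015666, against 1.29 and 1.27 RPKM under DMSO at day 5, and 1.4 and 1.44 RPKM under EPZ015666, against 1.45 and 1.4 RPKM under DMSO at day 3. The groups overlapped in MDAMB436 and at day 3 in BT549 and OVCAR8. PSMD8, also called RPN12, had 40.1 and 40.7 RPKM under EPZ015666, against 30.6 and 31 RPKM under DMSO, in COV362, a rise without overlap (0.38 ± 0.03, adjusted p = 0.000458). In OVCAR8 at day 5 it had 18.1 and 17.9 RPKM under EPZ015666, against 19.9 and 19.4 RPKM under DMSO. Both drug libraries were lower there (-0.12 ± 0.03, adjusted p = 0.0232), a call lost without DMSO library A, EPZ015666 library A or EPZ015666 library B (adjusted p from 0.0712 to 0.104) and with a GC and span correction (adjusted p = 0.169).

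The ubiquitin receptor PSMD4 was called lower in 3 comparisons and higher in none. PSMD4 had 6.93 and 6.31 RPKM under EPZ015666, against 7.92 and 7.92 RPKM under DMSO, in OVCAR8 at day 5, and the drug libraries were lower (-0.23 ± 0.04, adjusted p = 0.00553), kept without any 1 library. At day 3 in OVCAR8 its change was -0.15 ± 0.04 (adjusted p = 0.0374) and in MDAMB436 -0.13 ± 0.04 (adjusted p = 0.0468). The first was lost without each of the 4 libraries in turn (adjusted p from 0.0816 to 0.166) and with no filter on low values (adjusted p = 0.0657), and the second without each of the 4 libraries in turn (adjusted p from 0.0881 to 0.277) and with no filter on low values (adjusted p = 0.0582). PSMD4 had 19.3 and 19.8 RPKM under EPZ015666, against 21.5 and 21.4 RPKM under DMSO in MDAMB436 at day 5, and 6.75 and 6.9 RPKM under EPZ015666, against 7.84 and 7.55 RPKM under DMSO in OVCAR8 at day 3, in each case without overlap. Elsewhere its values were 20.9 and 21.7 RPKM under EPZ015666, against 21.7 and 21.6 RPKM under DMSO in COV362 at day 5, 12.7 and 12.3 RPKM under EPZ015666, against 13.7 and 12.9 RPKM under DMSO in BT549 at day 5, and 12 and 13.3 RPKM under EPZ015666, against 13 and 13 RPKM under DMSO in BT549 at day 3. In COV362 PSMD4 was not called (-0.03 ± 0.03, adjusted p = 0.484). PSMD13, also called RPN9, fell in OVCAR8 at day 3, with 6.81 and 6.86 RPKM under EPZ015666, against 7.79 and 7.63 RPKM under DMSO, and the groups did not overlap (-0.15 ± 0.03, adjusted p = 0.00644). It fell there at day 5 too (-0.18 ± 0.03, adjusted p = 0.00215) and rose in COV362 (0.12 ± 0.03, adjusted p = 0.0111), the last lost without DMSO library A (adjusted p = 0.0687).

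PSMD6, also called RPN7, was called higher in 4 comparisons and lower in 1. In MDAMB436 PSMD6 had 7.54 and 7.62 RPKM under EPZ015666, against 9.19 and 9.55 RPKM under DMSO, a fall without overlap that was kept without any 1 library (-0.27 ± 0.04, adjusted p = 0.00737). It rose in BT549 at day 3, with 6.81 and 7.57 RPKM under EPZ015666, against 5.94 and 5.98 RPKM under DMSO, and the groups did not overlap (0.23 ± 0.06, adjusted p = 0.0326). That call was lost without DMSO library A, DMSO library B or EPZ015666 library B (adjusted p from 0.0833 to 0.138) and with no filter on low values (adjusted p = 0.066). It also rose in BT549 at day 5 (0.22 ± 0.06, adjusted p = 0.0203, lost without DMSO library A, EPZ015666 library A or EPZ015666 library B, adjusted p from 0.067 to 0.121 and with a GC and span correction, adjusted p = 0.156). Further rises were called in OVCAR8 at day 5 (0.16 ± 0.05, adjusted p = 0.0324, lost without each of the 4 libraries in turn, adjusted p from 0.0609 to 0.133 and with no filter on low values or with a GC and span correction, adjusted p from 0.0583 to 0.504) and in COV362 (0.12 ± 0.03, adjusted p = 0.0274, lost without DMSO library A, DMSO library B or EPZ015666 library B, adjusted p from 0.0813 to 0.109 and with no filter on low values, adjusted p = 0.0538). PSMD1 fell in MDAMB436 (-0.24 ± 0.03, adjusted p = 0.00735) and rose in OVCAR8 at day 5 (0.09 ± 0.03, adjusted p = 0.0323, lost without each of the 4 libraries in turn, adjusted p from 0.0567 to 0.154 and in 1 fit over all 24 libraries or with a GC and span correction, adjusted p from 0.0501 to 0.225). PSMD3 rose in COV362 (0.21 ± 0.03, adjusted p = 0.00227) and in BT549 at day 5 (0.21 ± 0.05, adjusted p = 0.0169, lost without each of the 4 libraries in turn, adjusted p from 0.0701 to 0.116), PSMD11 fell in MDAMB436 (-0.17 ± 0.03, adjusted p = 0.0166, lost without EPZ015666 library A or EPZ015666 library B, adjusted p from 0.0829 to 0.113), and PSMD7 was called nowhere.

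The assembly chaperones of the cap were called higher in 2 comparisons (PSMD10) and 3 comparisons (PSMD5) and lower in none. PSMD10, also called gankyrin, had 13 and 13.9 RPKM under EPZ015666, against 11 and 11.1 RPKM under DMSO, in MDAMB436, and 12.1 and 12.1 RPKM under EPZ015666, against 8.98 and 9.15 RPKM under DMSO, in COV362. Both lines had higher drug libraries without overlap, with changes of 0.26 ± 0.05 (adjusted p = 0.0127) and 0.38 ± 0.03 (adjusted p = 0.000458). The call in MDAMB436 was lost without EPZ015666 library B (adjusted p = 0.0747). PSMD5 had 3.42 and 3.54 RPKM under EPZ015666, against 2.98 and 2.6 RPKM under DMSO, in BT549 at day 3. EPZ015666 libraries were higher (0.24 ± 0.05, adjusted p = 0.0204), a call lost without EPZ015666 library B (adjusted p = 0.0962). PSMD5 also rose in BT549 at day 5 (0.20 ± 0.05, adjusted p = 0.024, lost without each of the 4 libraries in turn, adjusted p from 0.0919 to 0.107) and in COV362 (0.16 ± 0.03, adjusted p = 0.0102, lost without DMSO library A, adjusted p = 0.0523).

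PSMF1, the inhibitor PI31, had 1.13 and 1.17 RPKM under EPZ015666, against 1 and 0.993 RPKM under DMSO, in COV362, higher in both drug libraries (0.11 ± 0.03, adjusted p = 0.0172). That call was lost without DMSO library A, DMSO library B or EPZ015666 library B (adjusted p from 0.0688 to 0.0823). In OVCAR8 at day 3 PSMF1 rose too (0.09 ± 0.03, adjusted p = 0.0317, lost without each of the 4 libraries in turn, adjusted p from 0.0594 to 0.145 and with a GC and span correction, adjusted p = 0.0916). The other values were 1.76 and 1.84 RPKM under EPZ015666, against 1.69 and 1.76 RPKM under DMSO in BT549 at day 5, 1.75 and 1.62 RPKM under EPZ015666, against 1.63 and 1.79 RPKM under DMSO in BT549 at day 3, and 2.42 and 2.37 RPKM under EPZ015666, against 2.22 and 2.25 RPKM under DMSO in OVCAR8 at day 5, and 2.27 and 2.3 RPKM under EPZ015666, against 2.36 and 2.2 RPKM under DMSO in MDAMB436 at day 5, none of them called. The groups overlapped in BT549 at day 3 and in MDAMB436. PSMG1, a chaperone that pairs alpha subunits during assembly of the core, had 7.12 and 7.02 RPKM under EPZ015666, against 5.47 and 5.52 RPKM under DMSO, in COV362, a rise without overlap kept without any 1 library (0.31 ± 0.03, adjusted p = 0.000735). It also rose in BT549 at day 5 (0.24 ± 0.07, adjusted p = 0.0361), a call lost without DMSO library B, EPZ015666 library A or EPZ015666 library B (adjusted p from 0.0983 to 0.2) and with no filter on low values (adjusted p = 0.0787). PSMG1 had 6.2 and 6.49 RPKM under EPZ015666, against 5.64 and 4.81 RPKM under DMSO in BT549 at day 5, 6.13 and 6.78 RPKM under EPZ015666, against 5.8 and 5.85 RPKM under DMSO in BT549 at day 3, and 6.01 and 5.97 RPKM under EPZ015666, against 5.48 and 5.86 RPKM under DMSO in MDAMB436 at day 5. Its values in OVCAR8 were 4.49 and 4.79 RPKM under EPZ015666, against 4.58 and 4.28 RPKM under DMSO at day 5, and 4.86 and 5.44 RPKM under EPZ015666, against 4.7 and 4.81 RPKM under DMSO at day 3, with overlap at day 5. PSMG3 rose in COV362 (0.20 ± 0.03, adjusted p = 0.00426) and fell in OVCAR8 at day 5 (-0.18 ± 0.06, adjusted p = 0.0407, lost without DMSO library A or EPZ015666 library A, adjusted p from 0.185 to 0.19 and with no filter on low values or with a GC and span correction, adjusted p from 0.0733 to 0.596), while PSMG2 was called in neither OVCAR8 comparison and not tested in the other lines.

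Averaged over the 4 lines at day 5, 16 of 33 members were called higher and 9 lower, where 74.7% of all genes tested were called, 36.3% higher and 38.4% lower. The median was 0.04 over members and -0.002 over all genes. The largest rises were those of PSMC4 (0.32 ± 0.01, adjusted p = 2.99e-09), PSMD12 (0.27 ± 0.02, adjusted p = 1.26e-07) and PSMD10 (0.19 ± 0.02, adjusted p = 2.28e-06). These averages were not shared by each line. PSMC4 and PSMD12 were not called in MDAMB436 (0.08 and 0.06), and PSMD10 was not called in BT549 (0.175) or OVCAR8 (-0.045). The largest falls were those of PSME1 (-0.45 ± 0.02, adjusted p = 1.36e-09), PSMB10 (-0.43 ± 0.04, adjusted p = 1.21e-06) and PSMB4 (-0.23 ± 0.02, adjusted p = 4.31e-07). On recovered reads the average fall of PSMB10 was the larger, at -0.652, while that of PSME1 stayed between -0.459 and -0.411 in the alternative settings. By line the change of PSMB10 ran from -0.166 in BT549 to -0.915 in COV362. PSME1 and PSMB4 were lower in 8 of 8 drug libraries at day 5 than each DMSO library of their line, and PSMC4 was higher in 8 of 8. Such separation was not particular to these: PSMB10, PSME2 and PSMB7 were also lower in 8 of 8, and PSMD12 higher. Its share over all genes was not computed. With a minimum of 5 RPKM, which left fewer members to test, 15 of 21 members were called, where 76.1% of all genes were. A GC and span correction turned the median over members to -0.016, against -0.019 over all genes, with 14 members called higher and 12 lower. It reversed the average rises of 3 members, none of which was then called. It gave PSMD14 -0.031 (adjusted p = 0.114) in place of 0.11 (limma adjusted p = 7.88e-06), and PSMA5 -0.045 (adjusted p = 0.103) in place of 0.07 (limma adjusted p = 0.00642). PSMD6 had -0.041 (adjusted p = 0.0613) with it, in place of 0.06 (limma adjusted p = 0.013).

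The drug effect differed between the lines for 28 of 33 members in limma's F test, where 79.8% of all genes differed. PSMC4 had the smallest adjusted p (2.32e-06), with changes of 0.64 in COV362, 0.31 in BT549, 0.23 in OVCAR8 and 0.08 in MDAMB436. Next came PSMB3 (1.38e-05), higher in COV362 (0.24) and lower in OVCAR8 (-0.30), with 0.12 in BT549 and 0.03 in MDAMB436. PSMD8 (1.9e-05) had 0.38 in COV362, 0.12 in MDAMB436, 0.11 in BT549 and -0.12 in OVCAR8. PSMD14 (2.85e-05) had 0.33 in COV362 and between -0.02 and 0.10 in the other lines. The falls of PSME1 (0.00073) and PSMB10 (0.000336) differed in size between lines. The 5 members whose drug effects were not called different were PSMB1, PSMF1, PSMD7, PSMD5 and PSMB7, with adjusted p from 0.0582 to 0.627.

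**Figure D4:**
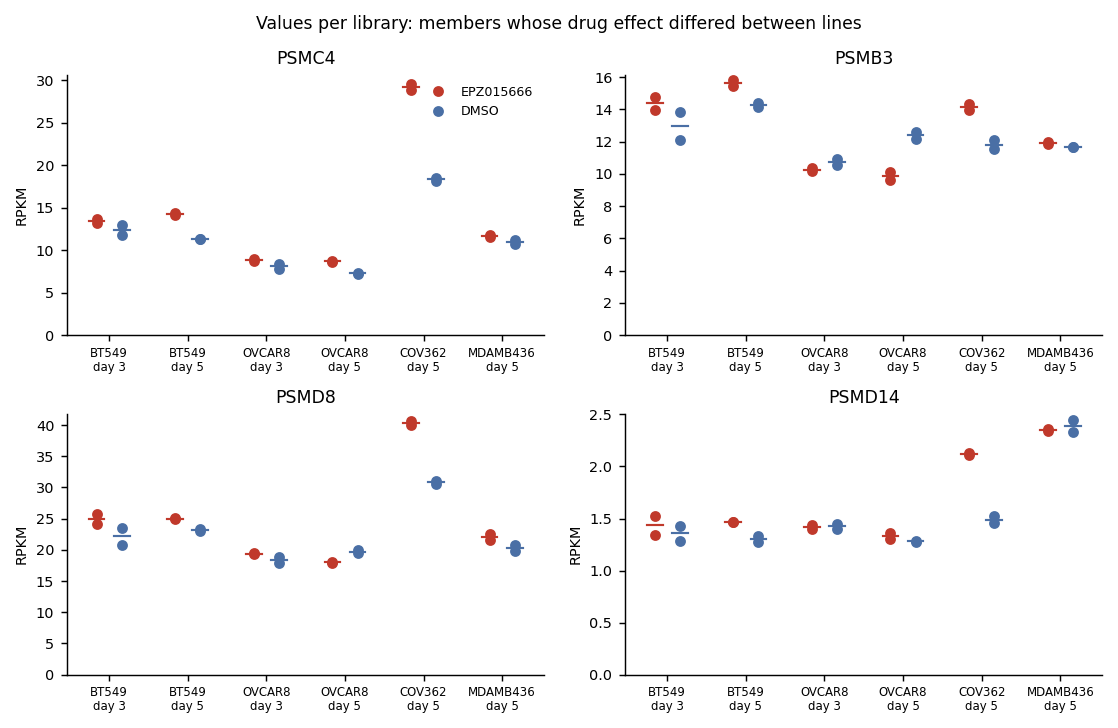
RPKM of PSMC4, PSMB3, PSMD8 and PSMD14 in each library, EPZ015666 (red) left of DMSO (blue) for each line and day, with bars at the mean of 2 libraries and axes from 0. PSMC4, PSMD8 and PSMD14 have their widest gap in COV362, and PSMB3 is lower under EPZ015666 in OVCAR8 at day 5 and higher in COV362.

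COV362 and MDAMB436 have separate DMSO libraries. Of the 34 members tested in both, 12 had a change above 0 in COV362 and below 0 in MDAMB436, 11 were above 0 in both, 11 below 0 in both and 0 the other way round. Over all genes tested in both, the shares in the same order were 21.6%, 34.6%, 31.4% and 12.4%. Called higher in COV362 and lower in MDAMB436 were PSMB6 and PSMD6, as were 3.76% of all genes. Called lower in both were PSMB4, PSME1, PSME2 and PSMB10, as were 13.8% of all genes, and called higher in both was PSMD10, as were 13.2%.

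**Figure D5:**
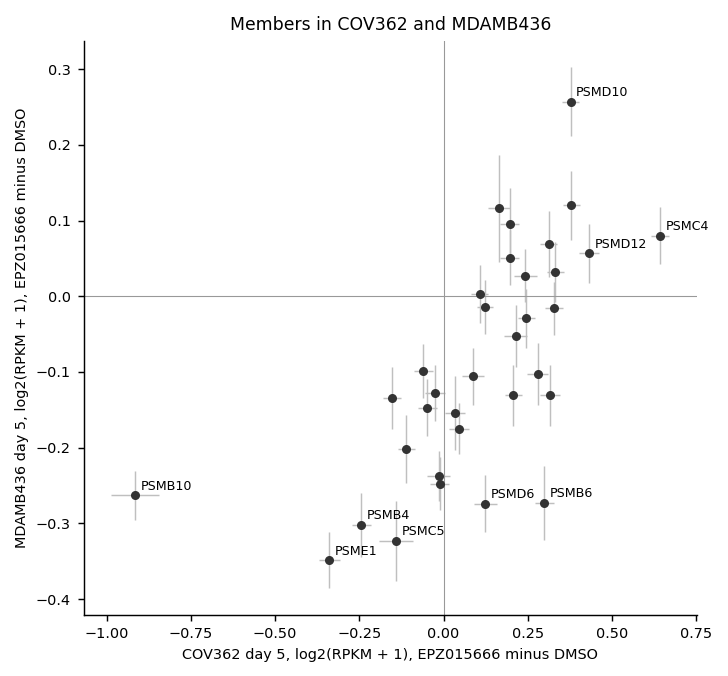
Change of each of the 34 members tested in both lines, log2(RPKM + 1) of EPZ015666 minus DMSO, in MDAMB436 (vertical axis) against COV362 (horizontal axis), with bars of 1 SE. PSME1, PSMB4 and PSMB10 are below 0 on both axes, PSMB6 and PSMD6 lie above 0 in COV362 and below 0 in MDAMB436, and no member lies the other way round.

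Few members had a drug effect that was called different between days. In BT549 limma called 0 of 35 members for the drug effect at day 5 minus that at day 3, where 5.97% of all genes were called, 1.52% higher and 4.45% lower; 5 members had an unadjusted p under 0.05, and limma-voom on recovered reads called 2, where 10.5% of all genes were called. Without DMSO library B of day 3, 1 was called, where 0% to 9.75% of all genes were called with 1 library left out. In 1 fit over all 24 libraries 7 of 35 were, where 25.5% of all genes were. The members nearest the threshold were PSMD12 (0.29 ± 0.08, adjusted p = 0.0846), PSMB2 (0.20 ± 0.06, adjusted p = 0.101), PSME1 (-0.33 ± 0.10, adjusted p = 0.105) and PSMC4 (0.20 ± 0.07, adjusted p = 0.159). At day 3 PSMB2 had 6.25 and 6.33 RPKM under EPZ015666, against 5.88 and 5.91 RPKM under DMSO, and PSMC4 13.2 and 13.7 RPKM under EPZ015666, against 11.8 and 12.9 RPKM under DMSO, gaps smaller than those at day 5. PSMD12 had 4.53 and 4.41 RPKM under EPZ015666, against 4.84 and 4.21 RPKM under DMSO at day 3, with overlap. In OVCAR8 limma called 2 of 35, where 7.46% of all genes were called, 2.31% higher and 5.15% lower. On recovered reads the count was 6 of 39, where 15.7% of all genes were called. The members limma called were PSMD2, whose drug effect was larger at day 5 (0.25 ± 0.04, adjusted p = 0.0353), and PSMB3, whose drug effect was lower at day 5 (-0.24 ± 0.05, adjusted p = 0.0467). PSMB3 in OVCAR8 had 10.1 and 9.63 RPKM under EPZ015666, against 12.2 and 12.6 RPKM under DMSO at day 5, and 10.2 and 10.4 RPKM under EPZ015666, against 10.9 and 10.5 RPKM under DMSO at day 3. The call of PSMD2 was lost without each of the 8 libraries in turn (adjusted p from 0.0693 to 0.116) and with no filter on low values (adjusted p = 0.0566), and that of PSMB3 without each of the 8 libraries in turn (adjusted p from 0.0886 to 0.139) and with no filter on low values or with a GC and span correction (adjusted p from 0.0559 to 0.0813). PSMD8 (-0.19 ± 0.05, adjusted p = 0.0607) and PSMD12 (0.18 ± 0.06, adjusted p = 0.107) came next and were not called. At day 3 in OVCAR8 PSMD8 had 19.3 and 19.5 RPKM under EPZ015666, against 18.9 and 17.9 RPKM under DMSO, and PSMD12 5.1 and 4.77 RPKM under EPZ015666, against 4.43 and 4.39 RPKM under DMSO, neither called.

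The vehicle libraries of the days also differed. Under DMSO in OVCAR8, 3 of 35 members were higher at day 5 than at day 3 and 10 were lower, where 36.7% of all genes were called, 20.7% higher and 15.9% lower. Among them were PSMB3, higher at day 5, and PSMD2, lower, the members whose drug effect limma called different between days in OVCAR8. Both of these DMSO calls depended on single libraries. PSME1 had 87.6 and 86 RPKM at day 5, against 67.7 and 64.8 RPKM at day 3, a rise of 0.39 ± 0.05 (adjusted p = 0.00324) kept without any 1 library. PSMD12 had 3.21 and 3.53 RPKM at day 5, against 4.43 and 4.39 RPKM at day 3, a fall, with a change of -0.31 ± 0.04 (adjusted p = 0.004). PSME1 thus had no overlap between days under DMSO, and its level under EPZ015666 was also higher at day 5 (0.25 ± 0.05, adjusted p = 0.0254), a call lost without EPZ015666 library A of day 5, EPZ015666 library B of day 5 or EPZ015666 library A of day 3 (adjusted p from 0.0596 to 0.119) and with no filter on low values (adjusted p = 0.0557). The DMSO count was 7 and 6 without DMSO libraries A and B of day 5, and 5 without either library of day 3, where 18.5% to 27.0% of all genes were called. With a minimum of 5 RPKM it was 8 of 23, where 44.6% of all genes were called.

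Under EPZ015666 in OVCAR8, 2 of 35 members were higher at day 5 than at day 3 and 3 were lower, where 18.0% of all genes were called, 6.81% higher and 11.2% lower. The count was 1 without EPZ015666 library A of day 5, 0 without library B of day 5, 1 without library A of day 3 and 2 without library B of day 3, where 3.56% to 7.27% of all genes were called, and 16 of 39 on recovered reads, where 21.9% of all genes were called. In 1 fit over all 24 libraries it was 9 of 35 (all genes 21.6%), and with no filter on low values 2 of 39 (all genes 6.08%). In BT549 under DMSO limma called 1 member, where 16.7% of all genes were called, 10.7% higher and 6.02% lower: PSMA8 was lower at day 5 than at day 3 (-0.22 ± 0.04, adjusted p = 0.0167). PSMA8 had 0.994 and 0.91 RPKM at day 5, against 1.33 and 1.23 RPKM at day 3, and its call was lost without DMSO library A of day 5, DMSO library B of day 5 or DMSO library A of day 3 (adjusted p from 0.0615 to 0.11). Without DMSO library B of day 3, 3 members were called, on recovered reads 4 of 39, where 20.8% of all genes were called, and in 1 fit over all 24 libraries 9 of 35, where 36.4% were. With 1 library left out 2.53% to 15.7% of all genes were called. Under EPZ015666 in BT549 limma called 0 of 35 members, where 0.848% of all genes were called, 0.384% higher and 0.464% lower; 1 had an unadjusted p under 0.05, and limma-voom called 1, where 4.44% of all genes were called.

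Genes that work with the proteasome were read beside the members, over lists written from general knowledge with earlier results of these data known. The catalytic immunoproteasome genes left out of the member rule fell. PSMB8 was called lower in 6 of 6 comparisons, from -0.37 in OVCAR8 at day 3 to -0.81 in COV362, where it had 13.1 and 13.8 RPKM under EPZ015666, against 24.4 and 24 RPKM under DMSO (-0.81 ± 0.03, adjusted p = 0.000216). PSMB9 was called lower in the 5 comparisons in which it was tested, from -0.19 to -0.40. In OVCAR8 at day 3 the call of PSMB8 was lost without EPZ015666 library A (adjusted p = 0.057), and that of PSMB9 without each of the 4 libraries in turn (adjusted p from 0.0712 to 0.0984). Of the 2 promoter windows of PSMB8, 1 held a match to the interferon response core and that of PSMB9 held 0.

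UBA1, the main enzyme that activates ubiquitin, was called lower in 6 of 6 comparisons, from -0.25 in OVCAR8 at day 3 to -0.50 in BT549 at day 5 (-0.50 ± 0.05, adjusted p = 0.000457). VCP, the p97 ATPase that extracts proteins for degradation, was called lower in 5, and OVCAR8 at day 5 was the exception (-0.07 ± 0.03, adjusted p = 0.12). Its calls were lost without EPZ015666 library A (adjusted p = 0.0623) in BT549 at day 3, without each of the 4 libraries in turn (adjusted p from 0.0779 to 0.0966) in BT549 at day 5 and without each of the 4 libraries in turn (adjusted p from 0.0777 to 0.178) and with no filter on low values or with median-of-ratios scaling (adjusted p from 0.0505 to 0.0624) in OVCAR8 at day 3. In COV362 the call was lost without DMSO library A, DMSO library B or EPZ015666 library A (adjusted p from 0.0612 to 0.0924), and in MDAMB436 without EPZ015666 library A (adjusted p = 0.0658). Of the 10 other subunits and assembly factors, 8 were tested in COV362, where 5 rose and 1 fell, and where 39.3% of all genes were called higher and 31.5% lower. Those that rose included ADRM1, the ubiquitin receptor RPN13 (0.44 ± 0.03, adjusted p = 0.000371), and POMP, which guides assembly of the core (0.29 ± 0.04, adjusted p = 0.00237). Of 7 regulators of proteasome genes, 6 were tested in COV362, where 5 rose and 0 fell, NFE2L1, the NRF1 factor, among them (0.16 ± 0.02, adjusted p = 0.00363). In MDAMB436 1 of 5 regulators rose and 1 fell, and in BT549 at day 5 NFE2L1 fell (-0.22 ± 0.04, adjusted p = 0.00721, lost without DMSO library A, EPZ015666 library A or EPZ015666 library B, adjusted p from 0.0571 to 0.0658). Of the 9 shuttle receptors and p97 factors, 5 rose and 1 fell in COV362, while 0 rose and 3 fell in MDAMB436, where 19.0% of all genes were called higher and 23.2% lower. With so few genes in a list, these counts are given as a description. In the common effect, the average over the 4 lines at day 5, NFE2L1 fell (-0.05 ± 0.01, adjusted p = 0.00261).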

How the data were processed

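The table holds RPKM values that the authors computed from reads counted with featureCounts on GRCh38, per the submitters' processing notes. RNA was extracted with the RNeasy Plus Mini Kit, and stranded poly(A) libraries were made by Novogene, per the labels' protocols. Aligner, annotation, versions and strand setting were not given in the sources used here. Each value multiplied by the whole span of its gene gave a whole number of reads, within 0.02 of a read, for 100.0% of nonzero values under 1000 reads. A single span explained the values of 16550 genes and not those of 41. Long introns therefore lower the RPKM of a gene, equally in all libraries.

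Changes were tested with limma 3.58.1 in R 4.3.3 (empirical Bayes with trend, 1 mean per group) on log2(RPKM + 1), with Benjamini-Hochberg adjustment over all genes that averaged at least 1 RPKM in the line. Each line was fitted alone, and the 16 libraries of day 5 together for the common effect and the F tests between lines. Alternatives were a pseudocount of 0.1, no filter, a minimum of 5 RPKM, the replicate letter as a block, scaling by median of ratios, 1 fit over all 24 libraries, limma-voom on the recovered reads (at least 1 CPM) and leaving out each library. A lowess correction for GC and gene span (span 0.3) was added after seeing the data. The fits were run on simulated data with known changes and independent normal noise. Changes as small as most of those of the members were not simulated, so the simulation says nothing about calls of that size. Tables and figures were made in Python 3.11.15 with pandas 2.3.3 and matplotlib 3.10.9.

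The members and lists were chosen with earlier results of these data known. Values of every library are given for up to 3 of the largest rises and falls per drug comparison, up to 4 members with the smallest p in each test of a difference, and 10 members set by role, among them the catalytic subunits. The largest rises and falls were taken among called members whose groups did not overlap. For these, the lack of overlap follows from the choice and adds no support to the call. Others are named where they passed the threshold. Sequences are from RefSeq on GRCh38.p14.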

Additional observations from a re-analysis of the deposited data

Results flagged for a closer look

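The drug effect differed between the 4 cell lines at day 5 in limma's F test for 28 of 33 members, where 79.8% of all genes differed. The smallest adjusted p among members were those of 4 genes. PSMC4, an ATPase of the cap, had an adjusted p of 2.32e-06, with a change of 0.64 in COV362 and 0.08 in MDAMB436. PSMB3, a beta subunit, had 1.38e-05, with 0.24 in COV362 and -0.30 in OVCAR8. PSMD8, a lid subunit, had 1.9e-05, with 0.38 in COV362 and -0.12 in OVCAR8. PSMD14, the deubiquitinase, had 2.85e-05, with 0.33 in COV362 and -0.02 in MDAMB436.

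Another pair of members had drug effects that differed between days in OVCAR8 in limma's test of the difference, day 5 minus day 3. The difference was 0.25 for PSMD2 (adjusted p = 0.0353) and -0.243 for PSMB3 (adjusted p = 0.0467). Both calls were lost without each of the 8 libraries in turn. Under DMSO alone in OVCAR8, PSMB3 was called higher and PSMD2 lower at day 5 than at day 3.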

How the results depend on the processing

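Of the 73 member calls in the 6 comparisons of drug and vehicle, 40 were kept without any 1 library and 38 of these also in every other setting. Over the called values of single genes in all comparisons, 2208 of 2507 alternative values kept direction and call, 294 kept direction only and 5 changed sign. All 5 arose with the correction for GC and gene span, which was chosen after seeing the data: PSMD14 (-0.031, adjusted p = 0.114), PSMD6 (-0.041, adjusted p = 0.0613) and PSMA5 (-0.045, adjusted p = 0.103) in the common effect, PSMD1 in OVCAR8 at day 5 (-0.039, adjusted p = 0.225) and PSMD14 under DMSO in OVCAR8, day 5 against day 3 (0.071, adjusted p = 0.113). The cause of these and the following changes was not tested.

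Counts of members called moved by over 1.5 times as follows, each with the share of all genes called in the same setting in parentheses. BT549 at day 3, 4 (20.0%), had 1 (8.57%) with no filter, 2 (21.3%) at a minimum of 5 RPKM and 13 (39.8%) in 1 fit over all libraries, and BT549 at day 5, 8 (40.4%), had 16 (54.5%) in that fit. On recovered reads OVCAR8 at day 3, 8 (37.0%), had 13 (38.7%), OVCAR8 at day 5, 15 (56.2%), had 25 (55.9%) and MDAMB436, 13 (42.2%), had 23 (48.5%), and MDAMB436 had 21 (47.5%) with the GC and span correction. At a minimum of 5 RPKM, which left fewer members to test, the common effect, 25 (74.7%), had 15 (76.1%) and the DMSO libraries between lines, 32 (98.7%), had 21 (99.1%). The day difference of the drug effect in BT549, 0 (5.97%), had 7 (25.5%) in 1 fit, 2 (10.5%) on recovered reads and 1 (15.6%) with the correction, and that in OVCAR8, 2 (7.46%), had 0 (0.927%) with no filter, 6 (15.7%) on recovered reads and 1 (7.24%) with the correction. Under DMSO, day 5 against day 3, BT549, 1 (16.7%), had 0 (24.4%) at a minimum of 5 RPKM, 9 (36.4%) in 1 fit, 4 (20.8%) on recovered reads and 4 (29.1%) with the correction, and OVCAR8, 13 (36.7%), had 8 (44.6%) at a minimum of 5 RPKM. Under EPZ015666, day 5 against day 3, BT549, 0 (0.848%), had 2 (10.2%) in 1 fit and 1 (4.44%) on recovered reads, and OVCAR8, 5 (18.0%), had 2 (6.08%) with no filter, 9 (21.6%) in 1 fit, 16 (21.9%) on recovered reads and 8 (20.8%) with the correction. The counts of COV362, 25 (70.8%), and of the F test of the drug effect, 28 (79.8%), moved by less in all settings.

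Leaving out 1 library gave 1 to 5 (9.84% to 18.0%) members called in BT549 at day 3, 3 to 5 (22.1% to 26.5%) in BT549 at day 5, 2 to 4 (21.9% to 27.5%) in OVCAR8 at day 3, 9 to 14 (42.8% to 47.6%) in OVCAR8 at day 5, 20 to 25 (59.2% to 64.4%) in COV362, 7 to 13 (21.2% to 38.2%) in MDAMB436, 25 to 26 (71.9% to 73.8%) in the common effect and 25 to 28 (75.2% to 79.4%) in the F test of the drug effect. It gave 0 to 1 (0% to 9.75%) for the day difference in BT549, 0 to 0 (0% to 0.0948%) for that in OVCAR8, 0 to 3 (2.53% to 15.7%) and 5 to 7 (18.5% to 27.0%) between days under DMSO in BT549 and OVCAR8, 0 to 0 (0% to 0.464%) and 0 to 2 (3.56% to 7.27%) between days under EPZ015666 in BT549 and OVCAR8, and 32 to 32 (98.3% to 98.5%) between lines under DMSO. There the lone library of a group is taken to vary as much as the other groups.

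The labels do not say whether the letters A and B pair the libraries, and the main fits took the letters as names only. Deviations of same-letter libraries correlated between -0.503 and 0.214, which cannot settle whether the libraries were paired by design. With the letter as a replicate block, 2 (15.4%) members were called in BT549 at day 3, 3 (31.6%) in OVCAR8 at day 3, 0 (0.0790%) for the day difference in OVCAR8 and 1 (10.5%) in OVCAR8 under EPZ015666 between days, and 7 (35.9%) in BT549 at day 5, 12 (52.5%) in OVCAR8 at day 5, 25 (67.8%) in COV362, 10 (33.5%) in MDAMB436, 25 (74.2%) in the common effect and 28 (78.9%) in the F test of the drug effect. The losses listed above for single calls leave out this block. With it no member was called lower in BT549 at day 3, so the calls of PSME1 and PSMA8 there were lost too. Each group has 2 libraries, and members under 1 RPKM were not tested.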
